A study of Mus musculus with 5 samples.

Results

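Transcripts of 10 neutrophil genes were followed in 5 libraries of RNA whose labels name colorectal tumours. The tumours of the study were of MC-38, a mouse colon adenocarcinoma line that was implanted under the skin of C57BL/6 mice. The genes were Ltf, Camp, Ngp, Lcn2, Chil3, Mmp8, Mmp9, Cd177, Itgb2l and Ltb4r1, and they were taken by symbol from the 54113 named entries of the deposited count table. All 10 were among the 16133 genes that passed the filter on low counts. They had been picked with their counts at 4 °C and 30 °C in view, so the difference between temperatures is described here without a test. Of the tumours, 3 came from mice kept at the thermoneutral temperature of 30 °C for 2 weeks and 2 from mice kept in the cold, at 4 °C, for 2 weeks. The labels give the same strain and tissue for both groups, no genotype change or drug, and neither age nor sex. Each library stood for 1 tumour sample, and the labels do not say whether the samples of a group came from separate animals, so the spread given below is that between samples. The study asked how cold exposure of the host alters tumour growth and metabolism.

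Neutrophils make their granules in waves while they mature in the bone marrow. The promyelocyte fills primary granules with myeloperoxidase and serine proteases, the myelocyte and metamyelocyte fill secondary granules with lactoferrin, cathelicidin and lipocalin, and the band cell fills tertiary granules with gelatinase. Transcripts of these proteins are therefore abundant in immature neutrophils, and much of their messenger RNA is lost before the mature cell enters the blood. The transcription factors C/EBPε, encoded by Cebpe, and PU.1, encoded by Spi1, take part in switching on the secondary granule genes.

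Promoters of the genes are shown because the transcripts of the genes moved together from library to library. The RefSeq promoter table (GRCm38.p6, 250 bases before to 50 after each start) held 9 of the 10 genes, and Mmp9 had no entry. The letters TTNNGNAA or their reverse complement, a C/EBP-type motif, were present in 7 of the 9 windows and in 40.7% of all 32851 promoters. The letters GAGGAA or their reverse complement, the core of a PU.1 site, were present in 6 of the 9 and in 28.3% of all. TATAAA or its reverse complement was present in 3 of the 9 and in 13.6% of all. Overlapping matches were allowed, both strands were searched, and a match is only a match of letters. The bases printed lie just before the RefSeq or the GENCODE start, whichever was further upstream. They run 5′ to 3′ on the strand of the gene, with C/EBP-type matches of either strand in capitals.
Ltf: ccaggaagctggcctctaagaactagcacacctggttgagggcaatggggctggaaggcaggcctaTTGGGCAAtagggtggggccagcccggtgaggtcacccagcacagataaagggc (chr9:111019151-111019270, plus strand)
Ngp: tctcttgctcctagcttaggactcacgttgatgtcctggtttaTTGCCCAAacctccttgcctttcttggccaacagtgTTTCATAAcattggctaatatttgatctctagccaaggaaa (chr9:110419627-110419746, plus strand)
Camp: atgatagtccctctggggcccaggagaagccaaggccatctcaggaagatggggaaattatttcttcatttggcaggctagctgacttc (chr9:109849618-109849706, minus strand)
Mmp8: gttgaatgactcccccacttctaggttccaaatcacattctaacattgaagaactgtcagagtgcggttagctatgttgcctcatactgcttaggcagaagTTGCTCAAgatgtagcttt (chr9:7558309-7558428, plus strand)
Cd177: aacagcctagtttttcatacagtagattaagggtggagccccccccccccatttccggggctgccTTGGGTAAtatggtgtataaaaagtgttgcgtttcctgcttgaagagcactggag (chr7:24760312-24760431, minus strand)
Chil3: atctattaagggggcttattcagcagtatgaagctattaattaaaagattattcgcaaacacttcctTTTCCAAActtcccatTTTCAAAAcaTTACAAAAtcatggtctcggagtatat (chr3:106167565-106167684, minus strand)
Among the matches of both Ltf and Ngp was TTGGGCAA or its reverse complement, a run found in 0.828% of all promoters, and among those of both Mmp8 and Lcn2 was TTGCTCAA or its reverse complement, found in 0.962%. These runs were singled out after the matches had been seen. The C/EBP-type match of Lcn2 lay 297 bases past the GENCODE start of that gene. Chil3 held 3 matches within the 120 bases shown. Camp held neither the C/EBP-type nor the PU.1 letters in its whole window, of which only 89 bases lay before its GENCODE start. Ltb4r1 lacked the C/EBP-type letters.

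Sequencing depth ran from 16191708 to 20320525 counts over the named genes, and levels are given as CPM, which sets each count against the library total, scaled by TMM, a factor that corrects the library total for a few very abundant genes. A level of 3 counts corresponded to between 0.148 and 0.185 CPM before that scaling. Epithelial markers, which a colon carcinoma would carry, were low and uneven, and 5 of 9 were over 3 counts in every library. Epcam lay between 7.67 and 15.5 CPM, Krt8 between 2.93 and 57.9, Krt18 between 0.796 and 51.3, Krt19 between 0 and 6.65 and Cdh1 between 2.09 and 33.1, and the sum of the list between 17.3 and 165 CPM. The 3 transcription factors of splenic stroma Tlx1, Nkx2-5 and Nkx2-3 were over 3 counts in every library and summed to between 32.5 and 61.2 CPM. The 6 B cell markers summed to between 1099 and 3087 CPM. Pancreatic acinar transcripts stood apart in 30 °C replicate 2, with 422801 TMM-scaled CPM, against 2916 in 4 °C replicate 2 and between 19.9 and 83.9 elsewhere. The epithelial sum was also highest in these 2 libraries, at 165 CPM in 30 °C replicate 2 and 88.2 CPM in 4 °C replicate 2. The label of tumour tissue is kept throughout with these values beside it, and whether the samples held spleen or pancreas was not tested. In such bulk RNA, fewer neutrophils and less RNA of these genes per neutrophil cannot be told apart.

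All 10 granule genes were lower on average at 4 °C than at 30 °C, where 49.3% of all genes tested were. The median log2 fold change of the 10 was −1.50, against 0.0064 over all genes tested, and 9 of the 10 lay at −1 or below, where 3.99% of all genes did. Since the genes were picked on this contrast, nothing is read from these counts. Levels also varied widely within the 30 °C group. The 10 genes together took 0.802% of the counts in 30 °C replicate 1 (95% Wilson interval 0.798% to 0.806%), 0.383% in replicate 2 (0.380% to 0.386%) and 0.209% in replicate 3 (0.207% to 0.211%). In the cold they took 0.166% in replicate 1 (0.164% to 0.167%) and 0.243% in replicate 2 (0.240% to 0.245%), so the third library at 30 °C fell between the 2 libraries at 4 °C. These shares are of unscaled totals, and the total of 30 °C replicate 2 includes its many acinar transcripts. After TMM scaling the 10 genes summed to 7462, 5196 and 1852 CPM at 30 °C and to 1532 and 2353 CPM at 4 °C. These intervals cover counting error within 1 library only, and not the spread between samples. Reads amplified by PCR and carrying no molecular identifier do not stand for separate molecules, so the intervals may be too narrow even for counting error.

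**Figure D1:**
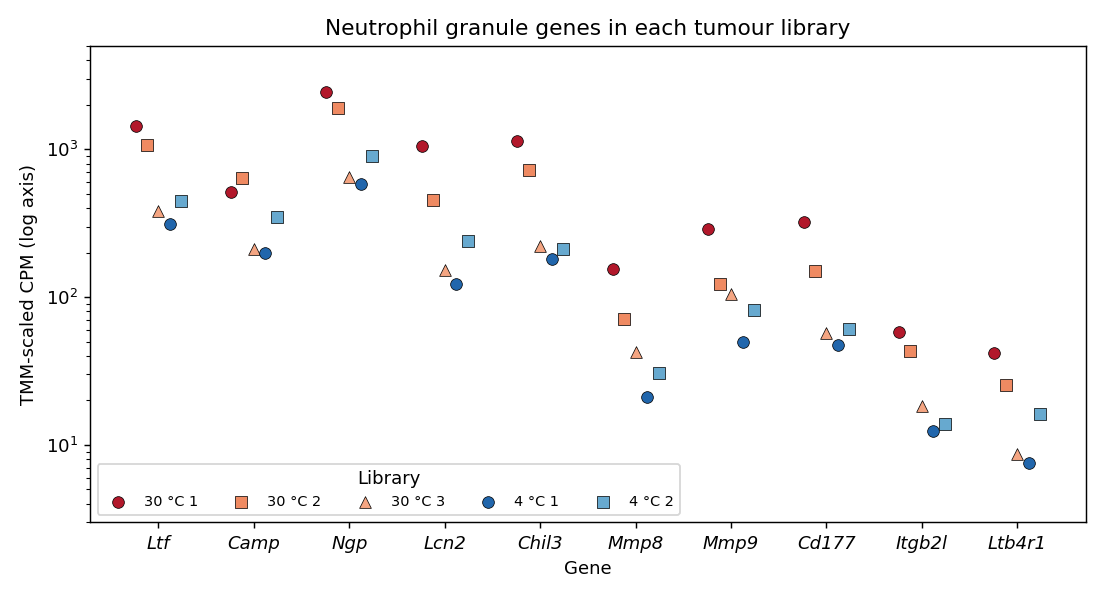
TMM-scaled CPM (log axis) of each granule gene in each library, with 1 point per library, red for 30 °C and blue for 4 °C. For 9 of the 10 genes the highest point is 30 °C replicate 1, and the triangle of 30 °C replicate 3 lies close to the blue points.

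Lactoferrin and lipocalin 2 withhold iron from bacteria, the first by binding the metal and the second by binding bacterial siderophores. Ltf, on chromosome 9 (111019271 to 111042767, GRCm38), stood at 1429, 1076 and 384 CPM in the 3 libraries at 30 °C and at 311 and 449 CPM in those at 4 °C. The mean at 30 °C was 963 ± 532 (SD, n = 3) and that at 4 °C was 380 ± 97.2 (SD, n = 2). This gave a log2 fold change of −1.34 (SE 0.55). The groups overlapped, because 30 °C replicate 3 was below 4 °C replicate 2. Lcn2, on chromosome 2 (32384633 to 32388252), stood at 1060, 454 and 152 CPM at 30 °C and at 124 and 241 CPM at 4 °C. Its log2 fold change was −1.61 (SE 0.83) with all libraries and −0.73 without 30 °C replicate 1. Lcn2 was the most variable of the 10 genes, with a level in 30 °C replicate 1 that was 6.98 times that in replicate 3. For each Ltf count there were 0.742 Lcn2 counts in 30 °C replicate 1 and between 0.396 and 0.538 in the other 4 libraries, so these genes did not rise in proportion in that library.

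Camp encodes the cathelicidin precursor, from which proteases release an antimicrobial peptide, and Ngp encodes a neutrophilic granule protein with a related cathelin-type fold. Both lie on chromosome 9 near Ltf, Camp at 109847379 to 109849617 and Ngp at 110419747 to 110423012. Ngp was the most abundant of the 10, at 2448, 1894 and 653 CPM at 30 °C and at 580 and 900 CPM at 4 °C, with a log2 fold change of −1.17 (SE 0.56). The ratio of Ngp to Ltf counts was among the steadiest pairings, between 1.70 and 2.01 over the 5 libraries. Camp stood at 516, 640 and 213 CPM at 30 °C and at 199 and 349 CPM at 4 °C. It had the smallest log2 fold change, −0.74 (SE 0.50), from a mean of 456 ± 220 at 30 °C (SD, n = 3) to 274 ± 107 at 4 °C (SD, n = 2). Camp was the only gene of the 10 that was highest in 30 °C replicate 2 rather than replicate 1 after TMM scaling. Without the scaling all 10 were highest in replicate 1, so the order of these samples for Camp rests on the factor of 0.738 that TMM gave to the library rich in acinar transcripts. Per Ltf count there were 0.361, 0.595 and 0.554 Camp counts at 30 °C and 0.638 and 0.779 at 4 °C. Both cold libraries were thus above all 3 warm ones, but both genes were picked on this contrast, so nothing is read from it.

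Ltf, Ngp and Camp lie within a stretch of chromosome 9 in which 1169.7 kb separate Camp from Ltf. Of the other 19 genes tested that lie between them, 8 were lower at 4 °C, where 49.3% of all genes tested were. Both cold libraries lay below all 3 warm ones for 1 of the 19, and for 11.0% of all genes tested. The median log2 fold change of these neighbours was 0.10, with a range from −0.62 to 0.90. With so few genes, these counts are not read as a property of the stretch.

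Chil3 encodes the chitinase-like protein Ym1, which mouse neutrophils and some macrophages make. On chromosome 3 (106147554 to 106167564), it had the largest log2 fold change of the 10, −1.83 (SE 0.66). Its level was 1145, 720 and 220 CPM at 30 °C and 181 and 211 CPM at 4 °C, and the mean went from 695 ± 463 (SD, n = 3) in the warm to 196 ± 21.3 (SD, n = 2) in the cold. Both cold libraries lay below all 3 warm ones, but 30 °C replicate 3 exceeded 4 °C replicate 2 by a factor of only 1.04. The close paralog Chil4 was listed with 1 count in each 30 °C library and 0 at 4 °C, so few reads were assigned to it. How reads shared between paralogs were counted is not given in the sources used here.

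Mmp8 and Mmp9 encode collagenase and gelatinase of neutrophils, the first stored in secondary and the second mainly in tertiary granules. Mmp8, on chromosome 9 (7558456 to 7568485), stood at 155, 70.9 and 42.3 CPM at 30 °C and at 21.1 and 30.7 CPM at 4 °C, with a log2 fold change of −1.79 (SE 0.57). Mmp9, on chromosome 2 (164940780 to 164955850), stood at 287, 123 and 104 CPM at 30 °C and at 49.5 and 81.5 CPM at 4 °C, with a log2 fold change of −1.39 (SE 0.50). For both genes the cold libraries were below all the warm ones. The level of Mmp9 was nearly the same in 30 °C replicates 2 and 3, unlike Ltf, which was 2.80 times higher in replicate 2. Accordingly, there were 0.272 Mmp9 counts for each Ltf count in replicate 3 and 0.115 in replicate 2. Timp1, an inhibitor of Mmp9, was scarce, at 12.2, 4.93 and 5.20 CPM at 30 °C and 4.33 and 17.5 CPM at 4 °C (log2 fold change 0.55, adjusted p = 0.897 by the quasi-likelihood test of edgeR). The number of Mmp9 counts per Timp1 count was 23.5, 25.1 and 20.1 at 30 °C and 11.4 and 4.66 at 4 °C.

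Cd177, Itgb2l and Ltb4r1 encode proteins of the cell surface. CD177 sits in the membrane of secondary granules and on the surface, where it holds proteinase 3 and binds PECAM1. Cd177, on chromosome 7 (24743983 to 24760311), stood at 322, 150 and 57.2 CPM at 30 °C and at 47.4 and 60.9 CPM at 4 °C, with a log2 fold change of −1.70 (SE 0.71). The groups overlapped by this pair of close values, 57.2 and 60.9, and without TMM scaling they did not overlap (64.5 and 62.7 CPM). Pecam1 stood between 113 and 175 CPM at 30 °C and at 169 and 138 CPM at 4 °C (log2 fold change 0.16, adjusted p = 0.919 by edgeR).

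Itgb2l encodes an integrin β-like protein of granulocytes that resembles integrin β2. On chromosome 16 (96422288 to 96443619), it stood at 58.0, 43.1 and 18.2 CPM at 30 °C and at 12.3 and 13.8 CPM at 4 °C. The log2 fold change was −1.61 (SE 0.48), and the groups did not overlap. Itgb2, which many leukocytes express, was at 466, 278 and 324 CPM at 30 °C and at 297 and 293 CPM at 4 °C (log2 fold change −0.27, adjusted p = 0.869 by edgeR). Per Itgb2 count there were 0.124, 0.155 and 0.0562 Itgb2l counts at 30 °C and 0.0416 and 0.0471 at 4 °C. All 3 warm libraries were above both cold ones, but Itgb2l was picked on this contrast, so nothing is read from this order.

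Ltb4r1 encodes BLT1, the high-affinity receptor that guides neutrophils along leukotriene B4, and is not itself a granule content. On chromosome 14 (55765962 to 55768494), it was at 41.8, 25.5 and 8.73 CPM at 30 °C and at 7.51 and 16.1 CPM at 4 °C. The log2 fold change was −1.10 (SE 0.68), or −0.53 without 30 °C replicate 1. The cold libraries differed from each other by a factor of 2.15, the widest gap among the 10 genes, and 4 °C replicate 2 lay above 30 °C replicate 3. Its neighbour Ltb4r2, the low-affinity receptor, stayed between 0.213 and 1.23 CPM.

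Counted over the 10, both libraries at 4 °C were below all 3 at 30 °C for 4 genes, namely Chil3, Mmp8, Mmp9 and Itgb2l. Among all genes tested this held for 11.0%, and groups did not overlap in either direction for 23.3%, and since the genes were picked on this contrast nothing is read from it. With unscaled CPM there were 5 such genes. All 10 were lowest in 4 °C replicate 1, and all 10 were higher in 4 °C replicate 2 than in replicate 1. The library 30 °C replicate 3 was above 4 °C replicate 1 for 10 genes but above 4 °C replicate 2 for only 4.

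How far the difference depended on single libraries was followed by leaving each out in turn. Without 30 °C replicate 1 the median log2 fold change of the 10 genes was −0.87, so that this library moved it by more than 1.5 times. It was −1.58 without 30 °C replicate 2 and −1.84 without 30 °C replicate 3. Without 4 °C replicate 1 it was −1.15, and without 4 °C replicate 2 it was −1.79. Every gene kept a negative sign in each of these settings. Camp ranged from −1.22 without 4 °C replicate 2 to −0.38 without 4 °C replicate 1, and Ltb4r1 from −1.77 without 4 °C replicate 2 to −0.53 without 30 °C replicate 1. Without 30 °C replicate 1 the largest values were those of Chil3 and Itgb2l, −1.26 and −1.23. The count of genes with non-overlapping groups rose from 4 to 10 without 30 °C replicate 3, and also without 4 °C replicate 2. Groups separate more easily with fewer libraries, and the share over all genes was not computed for these settings. Nothing is therefore read from the rise.

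**Figure D2:**
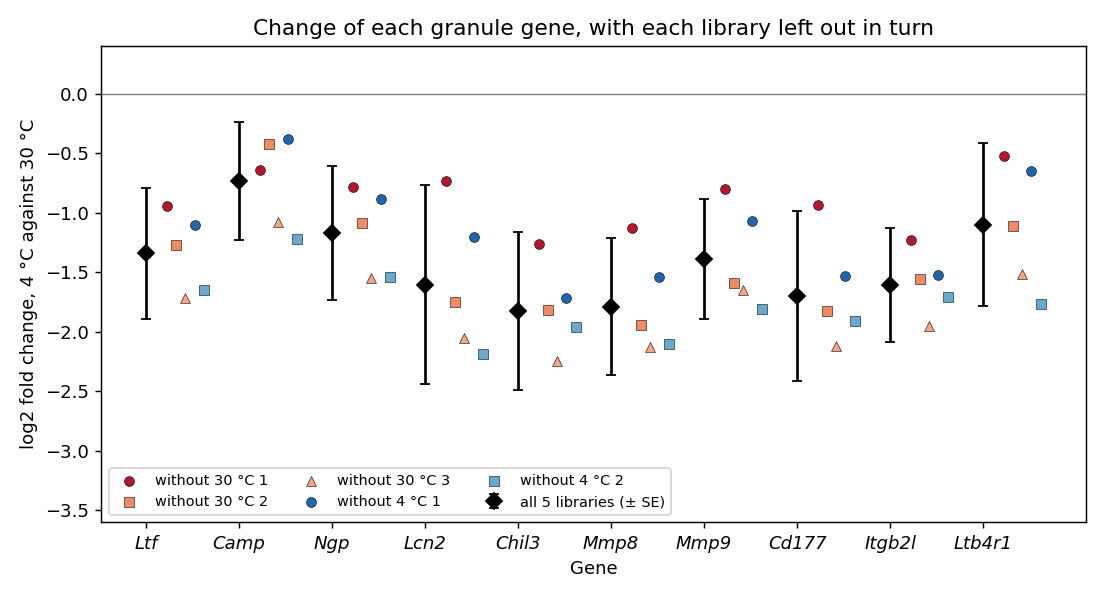
Log2 fold change between 4 °C and 30 °C of each granule gene with all 5 libraries (black diamonds, ± SE of the fit) and with each library left out in turn (coloured points). All values lie below 0, and the points without 30 °C replicate 1 are the nearest to 0 for all genes except Camp.

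Levels were compared between genes only after division by the exon length of the gene in kilobases. By mean CPM per kb over the 5 libraries, the order was Ngp (1060), Camp (505.6), Chil3 (303.6), Ltf (211.5), Lcn2 (154.8), Cd177 (44.87), Mmp9 (36.48), Mmp8 (26.38), Ltb4r1 (14.29) and Itgb2l (6.725). Soluble granule proteins of the secondary wave thus headed the order, and the proteases and surface proteins closed it. Most neighbours kept their order in all 5 libraries. The exceptions were Camp above Chil3 and Chil3 above Ltf, each kept in 4 libraries, and Cd177 above Mmp9, kept in 3, so Cd177 and Mmp9 had no settled order.

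The likeness of the profiles was measured as the root mean square difference in log2 CPM, after each gene was centred over the 5 libraries. Ltf was nearest to the mean of the other 9 genes, at 0.11, and Ngp followed at 0.17. The farthest were Camp at 0.49, Mmp9 at 0.38 and Lcn2 at 0.31. For scale, the median difference of 16123 other genes to the mean profile of the 10 was 0.95, and the 5th percentile was 0.62. The mean profile stood 5.37 times above its lowest library in 30 °C replicate 1, 3.32 times in replicate 2 and 1.34 times in replicate 3. Between the 2 cold libraries the factor was 1.52. Over single genes, the ratio of 30 °C replicate 1 to replicate 3 ran from 2.43 for Camp to 6.98 for Lcn2.

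The 5 other genes with the most similar profile were Prss57 (difference 0.084), S100a9 (0.086), Chil1 (0.12), Lilr4b (0.15) and Plppr3 (0.15). Prss57 is a serine protease of primary granules, S100a9 a subunit of calprotectin, and Chil1 a chitinase-like protein. S100a9, which had the highest CPM of the 5, was at 3990, 2532 and 880 CPM at 30 °C and at 733 and 1177 CPM at 4 °C. These genes were ranked over 5 libraries that share one strong gradient, and the ranking carries no test.

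Other neutrophil genes were compared in the fit over all 16133 genes, in which no gene passed an adjusted p of 0.05 by edgeR (smallest adjusted p 0.689), while 673 genes (4.17%) were lower and 417 higher at an unadjusted p under 0.05. The Wald test of DESeq2 called 112 genes. The primary granule list had 6 genes tested, all lower at 4 °C on average, none with separate groups and none called (smallest adjusted p 0.743 by edgeR), with a median log2 fold change of −1.89. Myeloperoxidase, Mpo, was at 694, 416 and 117 CPM at 30 °C and at 82.1 and 149 CPM at 4 °C (log2 fold change −1.82, SE 0.77). The serine protease Elane had a log2 fold change of −1.51 (SE 0.76), Prtn3 one of −1.95 (SE 0.92), Ctsg one of −2.27 (SE 0.96) and Ms4a3 one of −2.39 (SE 1.00). The mean of the list, in log2 CPM centred over the 5 libraries, was 1.81, 0.99 and −0.95 at 30 °C and −1.36 and −0.49 at 4 °C, the same order of libraries as the mean of the 10 genes. There were 4.30, 5.17 and 7.30 counts of the 10 genes per primary granule count at 30 °C and 7.95 and 6.51 at 4 °C, with the lowest value in the library where both lists were highest.

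The mature neutrophil list had 13 genes tested, of which all were lower on average and none was called by edgeR, with 4 at an unadjusted p under 0.05. Its median log2 fold change was −1.18. Both cold libraries lay below all the warm ones for 4 of its genes (Cxcr2, Csf3r, Padi4 and Trem1), and for 11.0% of all genes tested. Csf3r, the receptor for the growth factor G-CSF, was at 89.1, 106 and 94.9 CPM at 30 °C and at 41.4 and 58.5 CPM at 4 °C. Its libraries within a group were closer to each other than those of any of the 10 granule genes at 30 °C, with a log2 fold change of −0.95 (SE 0.21, adjusted p = 0.689 by edgeR). DESeq2 called Csf3r (adjusted p = 0.025) and no other gene of the neutrophil lists outside the 10. The chemokine receptor Cxcr2 was at 93.6, 56.3 and 39.1 CPM at 30 °C and at 27.9 and 33.5 CPM at 4 °C (adjusted p = 0.709 by edgeR). S100a8, Retnlg, Stfa1 and Il1r2 had log2 fold changes of −1.37, −1.18, −1.80 and −2.32, and Ly6g one of −0.88, with SEs from 0.49 to 1.18. Il1r2 was at 55.4, 7.39 and 5.33 CPM at 30 °C and at 3.58 and 5.51 CPM at 4 °C, so its change came mainly from 1 library. Stfa1 was scarce, with 72, 18 and 5 counts at 30 °C and 8 and 11 at 4 °C. Per count of the mature list there were between 1.02 and 1.18 counts of the 10 genes in all 5 libraries, a ratio set mainly by S100a8 and S100a9, which made up most of the list's counts. Csf3r, at nearly one level in the warm libraries, did not keep that proportion to the 10 genes.

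Other granule proteins, many of which monocytes and macrophages also make, had a smaller median log2 fold change, −0.59. Of 15 genes tested, 13 were lower on average and none was called by edgeR (smallest adjusted p 0.709), with 2 at an unadjusted p under 0.05. Both cold libraries lay below all the warm ones for 3 of the 15 (Cybb, Mmp25 and Stom), and for 11.0% of all genes tested. Without 30 °C replicate 1 the medians of the other granule, mature neutrophil and primary granule lists were −0.31, −0.67 and −1.19. Lyz2, the lysozyme that macrophages also make, was at 2340, 2172 and 1993 CPM at 30 °C and at 2172 and 2865 CPM at 4 °C (log2 fold change 0.22, SE 0.19, adjusted p = 0.862 by edgeR). Haptoglobin, Hp, was at 450, 199 and 73.0 CPM at 30 °C and at 55.6 and 103 CPM at 4 °C, the same order of libraries as Lcn2. Cybb, the catalytic subunit of the phagocyte oxidase, stayed between 377 and 389 CPM at 30 °C and was at 321 and 219 CPM at 4 °C (log2 fold change −0.50, adjusted p = 0.743 by edgeR). Itgam and Olfm4 had log2 fold changes of −1.04 (SE 0.50) and −1.14 (SE 0.58).

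**Figure D3:**
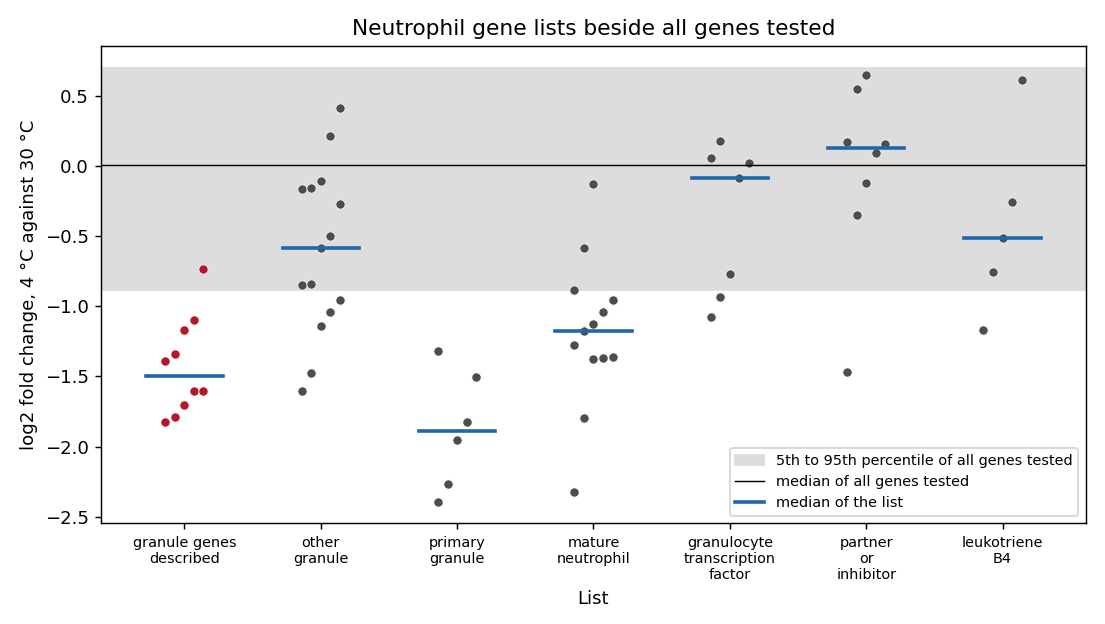
Log2 fold change between 4 °C and 30 °C of single genes (points) in the granule genes described and in 6 neutrophil gene lists, with the median of each list as a blue bar. The grey band spans the 5th to 95th percentile of all 16133 genes tested, and all granule genes except Camp lie below it.

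Of the 7 granulocyte transcription factors tested, 4 were lower on average and none was called by edgeR (smallest adjusted p 0.764, none at an unadjusted p under 0.05), with a median log2 fold change of −0.09. Without 30 °C replicate 1 that median was 0.14, so its sign rested on this library. Cebpe was at 53.3, 31.3 and 14.4 CPM at 30 °C and at 12.4 and 18.8 CPM at 4 °C, the same order of libraries as Ltf (log2 fold change −1.08, SE 0.54, adjusted p = 0.775 by edgeR). Cebpb had a log2 fold change of −0.93 (SE 0.78). It was at 121, 31.0 and 25.3 CPM at 30 °C and at 20.8 and 41.0 CPM at 4 °C. Gfi1 had a log2 fold change of −0.77 (SE 0.37). By contrast, Spi1, which macrophages and B cells also express, had a log2 fold change of 0.06 (SE 0.30), Runx1 one of −0.09 and Cebpd one of 0.02. Cebpa was the factor whose cold libraries were both above the warm ones, by little (41.4 and 46.8 against at most 41.3 CPM).

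Binding partners, receptors and inhibitors of the granule proteins come mostly from other cells. Of 8 genes tested, 3 were lower at 4 °C, none was called by edgeR (smallest adjusted p 0.765, none at an unadjusted p under 0.05), and the median log2 fold change was 0.13. Slc22a17, a receptor for lipocalin 2, was at 2.18, 2.71 and 2.45 CPM at 30 °C and at 3.78 and 3.89 CPM at 4 °C (log2 fold change 0.65, SE 0.32). Fpr2, the formyl peptide receptor that the cathelicidin peptide engages, is itself a neutrophil gene and had a log2 fold change of −1.47 (SE 0.75). Lrp1, Itgal and Timp2, which had the highest mean CPM of the list before division by exon length, had log2 fold changes of −0.35, −0.12 and 0.17. In the leukotriene B4 pathway 4 of 5 genes were lower and none was called by edgeR (smallest adjusted p 0.706, 1 at an unadjusted p under 0.05), with a median of −0.51. Alox5, the 5-lipoxygenase, was at 36.8, 24.5 and 14.3 CPM at 30 °C and at 9.85 and 12.6 CPM at 4 °C (log2 fold change −1.17, SE 0.41). Alox5ap had a log2 fold change of −0.75, Lta4h, which makes leukotriene B4 itself, one of −0.26, and Ltc4s one of 0.61.

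Markers of other cells also differed between these libraries, some in the opposite direction to the granule genes and some in the same. All 6 B cell and all 6 T cell markers were lowest in 30 °C replicate 1, the library highest for 9 of the 10 granule genes. The B cell markers summed to 1099, 1558 and 2722 CPM at 30 °C and to 3087 and 2741 CPM at 4 °C, and the T cell markers to 208, 252 and 355 CPM at 30 °C and to 466 CPM in both libraries at 4 °C. The monocyte and macrophage markers summed to 2327, 1793 and 1850 CPM at 30 °C and to 1728 and 2597 CPM at 4 °C, a sum made up mainly of Csf1r and the complement genes C1qa, C1qb and C1qc of macrophages. Of the 9 genes of this list that were tested, 3 were lower at 4 °C, and the median log2 fold change was 0.12. Its 2 markers of inflammatory monocytes, Ly6c2 and Ccr2, had both cold libraries below all the warm ones, as 11.0% of all genes tested had. Ly6c2 was at 252, 260 and 160 CPM at 30 °C and at 113 and 143 CPM at 4 °C (log2 fold change −0.81, adjusted p = 0.692 by edgeR), and Ccr2 at 58.8, 88.5 and 41.2 CPM at 30 °C and at 30.3 and 36.5 CPM at 4 °C (log2 fold change −0.91, adjusted p = 0.709 by edgeR). Of 8 markers of other granulocytes and mast cells, 7 were lower on average at 4 °C, with a median log2 fold change of −0.60. None was called by edgeR (smallest adjusted p 0.692, 2 at an unadjusted p under 0.05). Both cold libraries lay below all the warm ones for 4 of the 8 (Siglecf, Mcpt8, Ms4a2 and Prss34), and for 11.0% of all genes tested. The basophil proteases Mcpt8 and Prss34 had log2 fold changes of −1.21 (SE 0.38) and −1.29 (SE 0.41). The summed level of this list was 294, 506 and 367 CPM at 30 °C and 337 and 412 CPM at 4 °C. Megakaryocyte and blood progenitor markers had median log2 fold changes of −0.07 and 0.12. Erythroblast transcripts summed to 27272, 42342 and 14172 CPM at 30 °C and to 33190 and 41027 CPM at 4 °C. The 3 genes of splenic stroma summed to 38.8, 32.5 and 41.3 CPM at 30 °C and to 61.2 and 57.2 CPM at 4 °C, each gene with both cold libraries above all the warm ones. Groups did not overlap, in either direction, for 23.3% of all genes tested. None of these other lists had a gene at 0 in all libraries. The part that these cell types had in the levels of the granule genes was not tested.

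**Figure D4:**
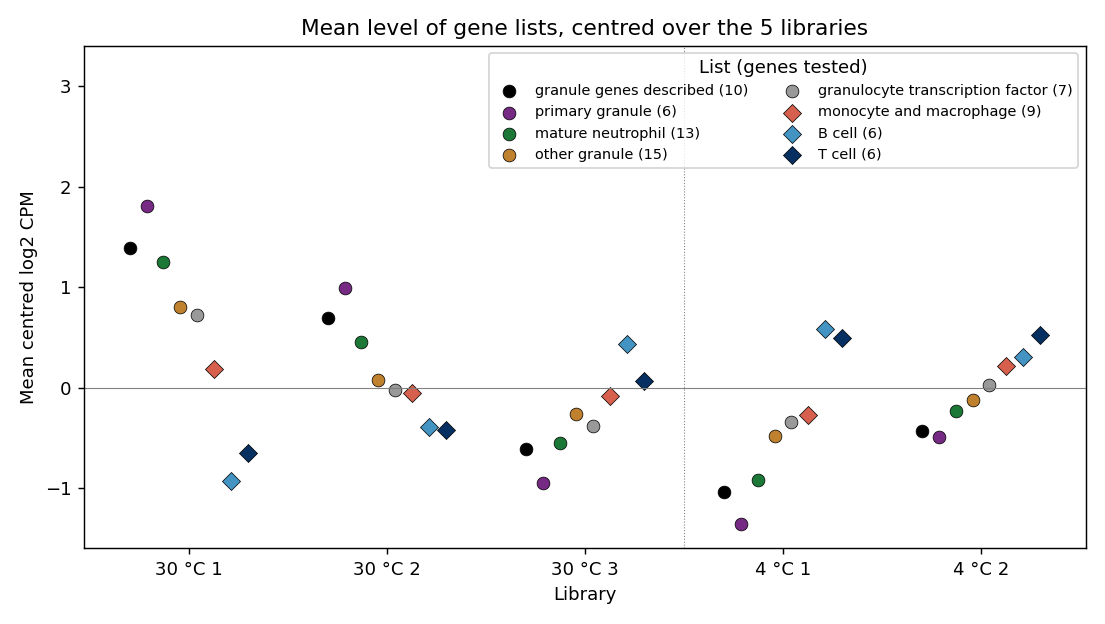
Mean log2 CPM of each gene list in each library after centring over the 5 libraries, with circles for neutrophil lists and diamonds for other cell types. The granule genes (black) stand at 1.39, 0.69 and −0.61 at 30 °C and at −1.04 and −0.43 at 4 °C, while the B cell and T cell diamonds are lowest in 30 °C replicate 1.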

How the data were processed

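Total RNA of 5 tumour samples was sequenced after a TruSeq library preparation. The authors deposited raw read counts per gene symbol and library. The paper's methods name featureCounts v2.0.0 on a Gencode annotation, and the submitters' processing notes list fastp, HISAT, RSEM and GRCm38. Which of these tools made the deposited counts, the strand setting and the treatment of reads mapping to several genes are not given in the sources used here. Of 54446 entries, 333 had no name (between 0.0101% and 0.0170% of the counts) and were left out. Libraries held between 16191708 and 20320525 counts.

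Counts were analysed in R 4.3.3 with edgeR 4.0.16 (filterByExpr, TMM, quasi-likelihood F-test with robust estimation, no covariate) over all 16133 genes, with Benjamini-Hochberg adjustment at 0.05. Log2 CPM used a prior count of 2. Exon lengths and coordinates came from GENCODE on GRCm38, and promoters from RefSeq. DESeq2 1.42.0, other scalings and filters, a replicate block and the omission of each library were tried as alternatives. The fit was tested on simulated data. No pair of libraries held the same library. The genes described, and the lists of other neutrophil and cell type genes, were chosen with earlier results of these data known. Named genes are, beside the 10 described, the 3 with the highest mean CPM and the 3 with the largest change of each neutrophil list, a preset group of neutrophil genes, partners and receptors, and the 5 most similar profiles. The genes of each list with non-overlapping groups, and some other-cell markers, were named after their values were seen. Lrp2, Ptx3, Stfa2 and Stfa3 did not pass the filter. Labels give no batch or date.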

Additional observations from a re-analysis of the deposited data

How the results depend on the processing

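The 150 values of single granule genes kept their sign under every alternative run, and so did the median log2 fold change of the granule genes. That median also stayed within the pooled replicate spread, but the libraries at 30 °C differed so widely that this bound was loose. Without 30 °C replicate 1 it was −0.87. With RLE or upper-quartile scaling, or with acinar genes removed before scaling, it was −1.51, −1.44 and −1.51. With the replicate number as a block it was −1.84, and the count of genes called rose from 0 to 44. The block has no support in the labels, since only 2 numbers are shared. Deviations of same-numbered libraries correlated at −0.25 and 0.26 over 16133 genes. With 2 libraries at 4 °C, their deviations from the group mean mirror each other, so these values cannot decide on a pairing. The block changed no other call. DESeq2 called 112 genes in all and 1 of the other neutrophil genes, against 0 by edgeR, and library totals without scaling factors, an alternative chosen after seeing the data, called 8. With each replicate left out in turn, between 4 and 10 granule genes had non-overlapping groups, and with upper-quartile scaling 3 had. Groups separate more easily when a library is left out, so the higher counts are not read as a result. The causes of these differences were not tested. Leaving out a library at 4 °C leaves 1 in that group, which is then assumed to vary like the others. Every granule gene lay above 3 counts in every library.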
